A study of Mus musculus with 8 samples.

Results

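Insulin leaves the β-cell when a granule fuses with the plasma membrane, and the proteins that carry out this fusion are the subject here. They are 38 listed genes for SNARE proteins, their Sec1/Munc18 and priming partners, calcium sensors, Rab GTPases with their effectors, and the factors that recycle SNAREs. The list names them by symbol. A gene was taken as measured when a probe's RefSeq accession mapped to its symbol, and the probe with the highest mean signal over the arrays stood for it. By this rule 37 of the 38 were measured, through 62 probes, among 22911 named genes on the array. Syt5 was matched by no probe and is not analysed here.

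The islets came from 11-week-old mice of 2 genotypes. Control mice carried the floxed Fbln5 gene, with exons that Cre can remove. βFbln5KO mice carried the same floxed gene together with Ins1-cre, in which the mouse insulin 1 promoter drives Cre, so that deletion is directed to β-cells and other islet cells keep the gene. No group with Ins1-cre alone was analysed here. The mice were male littermates per the study's methods, and each of 4 extractions per genotype used 150 islets. How many mice gave the islets of an extraction is not given in the sources used here, and so the p-values below measure the spread between extractions.

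In this machinery, syntaxin and SNAP proteins of the plasma membrane zip together with VAMP proteins of the granule to pull both membranes into contact. Munc18 and Munc13 proteins prepare the syntaxin, synaptotagmins and Doc2 proteins sense the calcium that enters a stimulated β-cell, and complexins hold or promote the final step. Rab3 and Rab27 bring granules to the membrane through effectors, and after fusion the ATPase NSF, with its adaptor α-SNAP, takes the spent SNARE complexes apart. Many of these proteins or their close relatives also serve synapses of neurons.

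Levels are log2 signals relative to the 75th percentile of their own array, so that a value of 0 equals that percentile. They can be compared between arrays for 1 probe, but not between probes. A probe is called well above background where the scanner software marked it so. The targeted gene was lower on 3 of the 4 βFbln5KO arrays. Fbln5 gave −1.70, −1.32, −2.05 and −1.83 on the control arrays and −2.74, −2.40, −2.38 and −1.37 on the βFbln5KO arrays. The array labelled βFbln5KO replicate 4 thus lay within the control range, while the other 3 lay below every control array. Whether the probe lies in the deleted exons was not tested. The log2 difference was −0.50 (SE 0.29, adjusted p = 0.342 by limma). The share of spots that the software called well above background was 56.6% to 58.8% for the control group but 52.6% to 56.6% for the βFbln5KO group. Each genotype filled 1 row of arrays on the slide, which means that genotype cannot be told apart from slide row. All markers of the islet's hormone cells (10 for β, 5 for α, 4 for δ and 2 for PP cells) were well above background on all 8 arrays. The first marker of each of these lists differed by −0.15 for Ins1, −0.10 for Gcg, −0.10 for Sst and −0.003 for Ppy (log2), and none passed the test. Among other cell types the first markers differed by −0.87 for acinar Cpa1, −0.28 for ductal Krt19, −0.07 for endothelial Pecam1, −0.15 for macrophage Adgre1 and −0.24 for mesenchymal Col1a1. Mast cell Cpa3 was not well above background on any array.

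Most of the fusion machinery was present in the islets of both genotypes, and no member differed between them after adjustment. Of the 37 measured members, 31 were well above background on all 8 arrays. Each of the other 6 was so on at least 1 array. No member had an adjusted limma p under 0.05, where 0.0106% of all probes did. At an unadjusted limma p under 0.05, 2 members were lower in βFbln5KO islets, Nsf and Snap23, and 0 were higher. Over all named genes, 2.68% were lower and 16.8% higher at this threshold. The higher share depended on the background correction, the normalization and the handling of dim probes. The split was 3.91% and 0.738% with normexp background correction and 2.85% and 1.9% with quantile normalization. With a filter on dim probes it was 3.56% and 0.869%, and with a floor on dim signals 2.11% and 0.873%. Among the 13650 named genes well above background on all 8 arrays, which is the nearer background for these members, 3.08% were lower and 1.01% higher. Both lower members belong to the 31 detected on all arrays. The median log2 difference of these 31 was 0.006, beside −0.008 over all 13650 genes, with 15 members below 0 and 16 above. The 95% interval of the difference lay within a change of 1.5-fold in either direction for 25 of the 37 members, and within 2-fold for 31. The intervals of the other members reached past these limits.

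**Figure D1:**
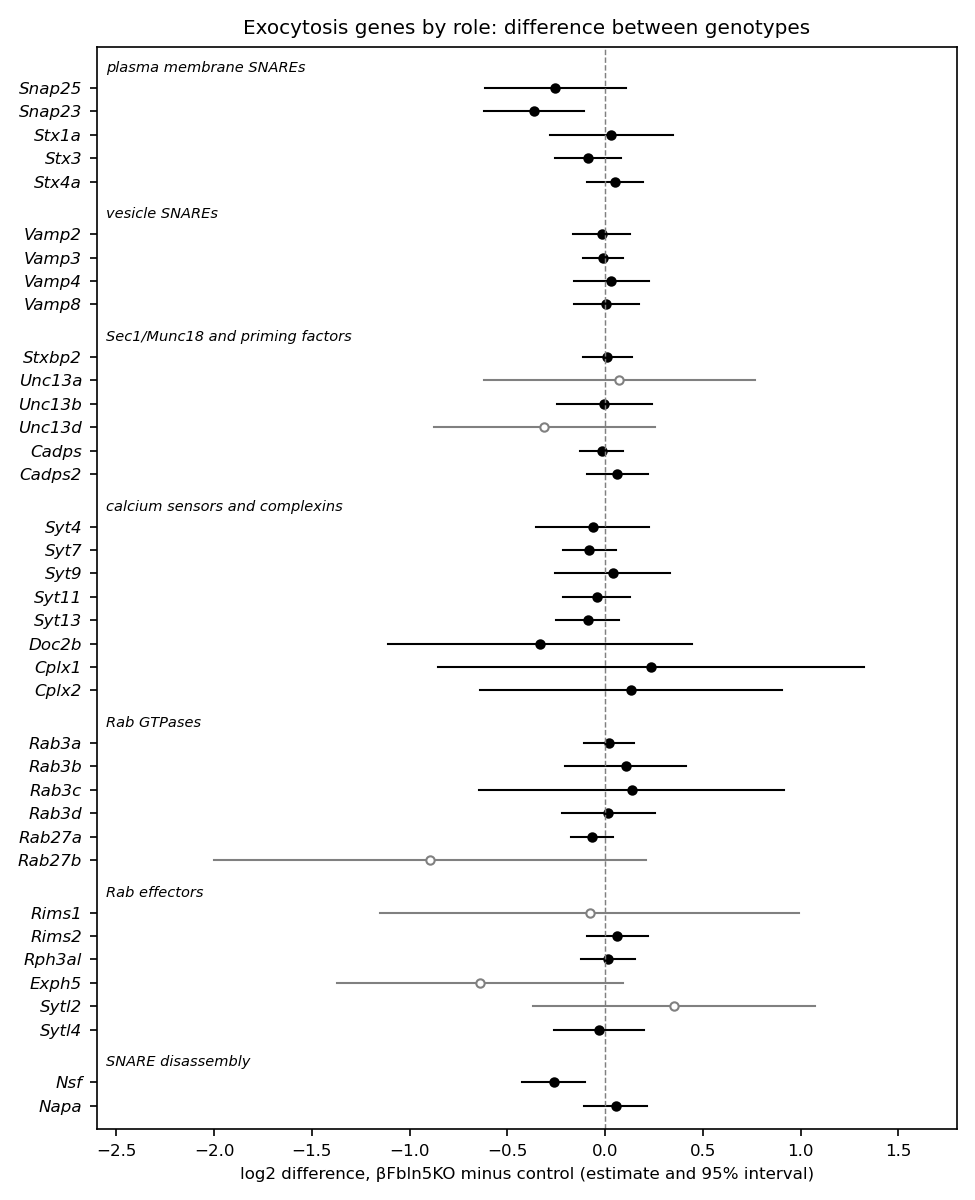
The log2 difference between βFbln5KO and control islets (horizontal axis; points are limma estimates, lines their 95% intervals) for 37 members grouped by role (vertical axis). Filled points are members well above background on all 8 arrays and open points the other 6. Only the intervals of Snap23 and Nsf leave out 0, and the widest belong to Rab27b, Cplx1 and Rims1.

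The promoter windows of Nsf and Snap23, the members with the smallest p, and of Cplx1 and Stx1a, which moved together between arrays as described further on, are shown first. Each window holds 250 bases before the gene's start and 50 after it, read 5′ to 3′ on the gene's strand, from RefSeq on GRCm38.p6. It lies at chr11:103954007-103954306 on the minus strand for Nsf, chr2:120567421-120567720 on the plus strand for Snap23, chr5:108549978-108550277 on the minus strand for Cplx1 and chr5:135023232-135023531 on the plus strand for Stx1a. Capitals mark the letters of motifs that were searched on both strands.
Nsf: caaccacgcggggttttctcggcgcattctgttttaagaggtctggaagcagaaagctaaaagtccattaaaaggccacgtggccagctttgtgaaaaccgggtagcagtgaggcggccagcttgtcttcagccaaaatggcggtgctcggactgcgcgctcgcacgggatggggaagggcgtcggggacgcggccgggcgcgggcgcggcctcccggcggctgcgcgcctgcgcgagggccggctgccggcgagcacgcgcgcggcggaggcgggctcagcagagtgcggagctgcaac
Snap23: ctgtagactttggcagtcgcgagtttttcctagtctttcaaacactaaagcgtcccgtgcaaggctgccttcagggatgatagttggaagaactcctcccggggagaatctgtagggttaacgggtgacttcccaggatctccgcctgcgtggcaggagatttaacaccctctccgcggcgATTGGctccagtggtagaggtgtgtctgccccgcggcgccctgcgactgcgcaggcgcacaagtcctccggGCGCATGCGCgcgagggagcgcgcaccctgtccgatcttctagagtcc
Cplx1: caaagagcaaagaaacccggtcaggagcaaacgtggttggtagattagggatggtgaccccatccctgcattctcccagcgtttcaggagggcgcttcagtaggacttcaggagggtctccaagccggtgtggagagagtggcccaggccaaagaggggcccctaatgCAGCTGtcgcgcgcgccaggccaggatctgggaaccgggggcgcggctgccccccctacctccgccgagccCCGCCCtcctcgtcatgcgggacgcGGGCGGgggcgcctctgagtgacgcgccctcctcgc
Stx1a: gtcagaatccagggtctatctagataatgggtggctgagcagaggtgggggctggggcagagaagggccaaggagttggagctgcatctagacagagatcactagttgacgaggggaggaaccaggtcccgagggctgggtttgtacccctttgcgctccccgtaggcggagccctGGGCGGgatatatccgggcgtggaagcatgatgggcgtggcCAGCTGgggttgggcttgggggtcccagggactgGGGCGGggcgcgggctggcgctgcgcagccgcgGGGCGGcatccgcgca
Windows were found for 26 of the 38 listed genes (29 windows). The E-box was searched only in the form CAGCTG, found in 16.3% of all 32851 windows. The other motifs were the GC-rich box GGGCGG (35.7%), CCAAT (37.4%), the cyclic AMP response element TGACGTCA (1.79%) and the NRF1 core GCATGCGC (2.71%). Nsf's window held none of these motifs, but it holds CACGTG, an E-box form that was not searched. Snap23's held a CCAAT box on its reverse strand, and the NRF1 core on either strand in 2 overlapping matches just after the start. Cplx1 and Stx1a each held 1 E-box of the searched form, with 2 GC-rich boxes in Cplx1 and 3 in Stx1a. Among the 29 windows, 8 held the E-box (those of Cplx1, Cplx2, Rab27a, Rab3a, Rab3c, Rph3al, Stx1a and Stx4a), 18 the GC-rich box, 9 CCAAT, 2 the NRF1 core and 1, that of Napa, the cyclic AMP response element. These matches are descriptions of letters and not of bound sites.

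Nsf, the ATPase that separates spent SNARE complexes, was the member with the smallest p and the only 1 of the 31 detected on all arrays whose groups did not overlap. The log2 signals were 2.52, 2.48, 2.31 and 2.27 on the control arrays and 2.19, 2.21, 2.05 and 2.08 on the βFbln5KO arrays. Every βFbln5KO array lay below every control array, as was the case for 2.04% of the 13650 genes detected on all arrays. The level was 2.40 ± 0.12 in control and 2.13 ± 0.08 in βFbln5KO islets (SD, n = 4 each; exact two-sided permutation p = 0.0286, the smallest this design allows). The difference of −0.26 (SE 0.071), a 1.20-fold lower signal with a 95% interval of −0.42 to −0.10 on the log2 scale, had an unadjusted limma p of 0.00499 and an adjusted p of 0.0728. The adjusted p ranged from 0.069 to 1 over the alternatives, in all of which the signal was lower.

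The other Nsf probes differed in the same direction. The second, also above background on all arrays, gave −1.92, −2.19, −2.36 and −2.18 in control and −2.50, −2.31, −2.58 and −2.71 in βFbln5KO islets, a difference of −0.36 (SE 0.14, adjusted p = 0.136 by limma). Here βFbln5KO replicate 2 reached just above the lowest control array. The probe with the lowest mean passed the background mark only in control islets, on 3 arrays, where its signal was at least 1.07-fold brighter. Napa, which encodes the adaptor that loads Nsf onto the complexes, had a level of 4.82 ± 0.10 in control and 4.87 ± 0.09 in βFbln5KO islets (SD, n = 4 each), with a difference of 0.06 (95% interval −0.11 to 0.22).

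Snap23, a widely expressed relative of Snap25 that pairs with syntaxins at the plasma membrane, had the second smallest p. Its log2 signals were 3.75, 3.40, 3.20 and 3.51 in control and 3.23, 3.10, 3.13 and 2.95 in βFbln5KO islets. The groups met at the edge, where βFbln5KO replicate 1 lay above control replicate 3. The difference was −0.36 (SE 0.11, 95% interval −0.62 to −0.11), a 1.28-fold lower signal. Its unadjusted limma p was 0.0111 and its adjusted p 0.0780, which ranged from 0.073 to 1 over the alternatives. A second Snap23 probe differed by −0.22 (SE 0.17, adjusted p = 0.506 by limma), with its control arrays spread from −1.88 to −0.996.

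**Figure D2:**
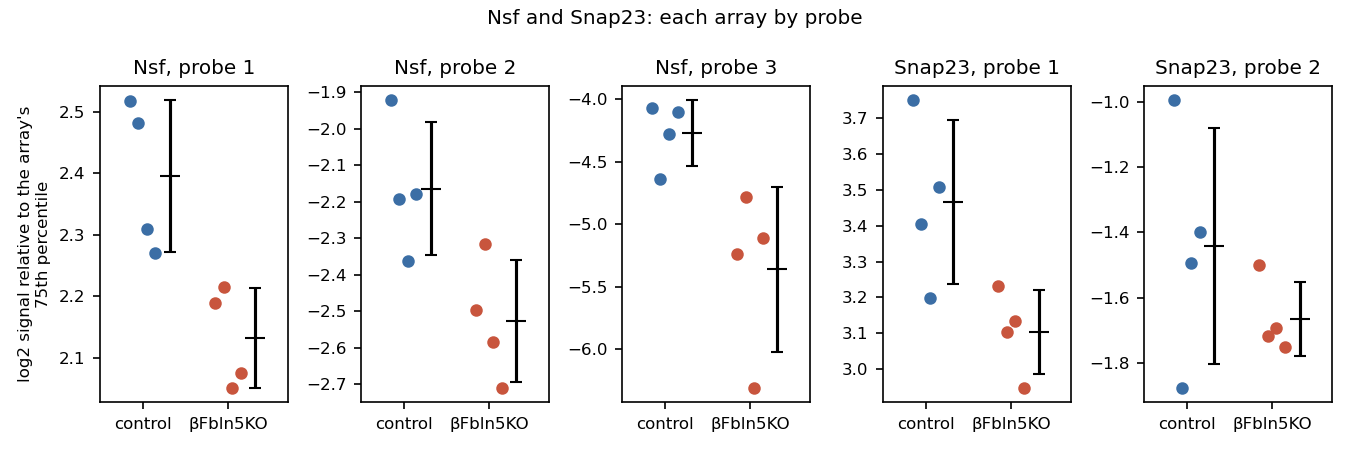
The log2 signal relative to each array's 75th percentile (vertical axis, with its own range in each panel) for the 3 Nsf probes and 2 Snap23 probes on the 4 control (blue) and 4 βFbln5KO (red) arrays, with group means and SDs as black bars. For Nsf probe 1 the lowest control value, 2.27, lies above the highest βFbln5KO value, 2.21, whereas both Snap23 probes and Nsf probe 2 overlap.

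Markers of other cells differed between the same arrays. All 15 acinar markers measured were lower on average in βFbln5KO islets, with a summed level (log2) from 10.47 to 12.08 on control and from 9.71 to 11.35 on βFbln5KO arrays. So were all 5 α-cell markers, with summed levels from 7.75 to 7.97 and from 7.65 to 7.79. None of these 20 passed adjustment. The 4 neuron and 5 Schwann cell markers were all higher on average, and none passed adjustment either. In both lists the largest difference was that of a marker near background. Dbh (0.69) was above background on 1 control and 1 βFbln5KO array, and Cdh19 (0.47) on none. The other 3 neuron and 4 Schwann cell markers were so on every array. Summed levels of the neuron markers ran from 3.75 to 4.10 on control and from 3.96 to 4.25 on βFbln5KO arrays. Those of the Schwann cell markers ran from 1.041 to 1.382 and from 1.067 to 1.503. Of the 10 β-cell markers 8 were lower on average, again with none past adjustment, and Iapp (−0.13) and Slc30a8 (−0.11) were lower on every βFbln5KO array than on every control array. In whole islets, fewer cells of a type and less RNA per cell cannot be told apart. The part of these cell types in the Nsf and Snap23 values was not tested.

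None of the other plasma membrane SNAREs or vesicle SNAREs passed the test in either direction. Snap25, the main partner of syntaxin in regulated exocytosis, gave 3.71, 3.32, 2.95 and 3.16 on control and 3.21, 2.92, 3.17 and 2.82 on βFbln5KO arrays. The groups overlapped widely, and control replicate 1 was the highest of all. The difference was −0.25 (SE 0.16, adjusted p = 0.396 by limma). Its second probe pointed the other way, by 0.15 (SE 0.11), with −1.45, −1.45, −1.62 and −1.54 in control and −1.34, −1.56, −1.47 and −1.08 in βFbln5KO islets. The probe that stands for Snap25 lies in the outer 16 spot rows of the array and has no value when these are left out. Without control replicate 3 its unadjusted limma p was 0.0408 and its adjusted p 0.189.

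Stx1a, the syntaxin of synapses and β-cells, gave −1.74, −1.41, −1.69 and −1.89 on control and −1.93, −1.57, −1.66 and −1.43 on βFbln5KO arrays, with control replicate 2 and the array labelled βFbln5KO replicate 4 highest. The genotypes differed by 0.03 (SE 0.14). Stx4a, a syntaxin with a part in sustained secretion, gave 3.73, 3.71, 3.82 and 3.87 in control and 3.74, 3.76, 3.90 and 3.93 in βFbln5KO islets, a difference of 0.05 (SE 0.06). A second Stx4a probe differed by −0.29 (SE 0.25), where control replicate 1 alone, at 0.43, stood above the other 7 arrays, at −0.90 to −0.42. Stx3 differed by −0.09 (95% interval −0.26 to 0.08).

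Vamp2, the granule SNARE that pairs with syntaxin and Snap25, overlapped between genotypes. Its signals were 3.70, 3.77, 3.84 and 3.83 in control and 3.68, 3.80, 3.90 and 3.69 in βFbln5KO islets. The difference was −0.02, with a 95% interval of −0.16 to 0.13. Vamp3, Vamp4 and Vamp8, the other vesicle SNAREs of the list, differed by −0.01, 0.03 and 0.01, and all 4 intervals in this group lay within a change of 1.5-fold.

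Among the Sec1/Munc18 and priming factors, none of the 6 members passed the test in either direction. Stxbp2, a Munc18 protein that binds syntaxins, gave 2.32, 2.29, 2.25 and 2.45 on control and 2.35, 2.30, 2.41 and 2.29 on βFbln5KO arrays. The groups lay within each other, with a difference of 0.01 (SE 0.06), while a second probe differed by −0.21 (SE 0.10, adjusted p = 0.271 by limma). Unc13a, the Munc13 protein that primes granules, lay near background, with −3.52, −4.02, −4.46 and −4.14 in control and −3.88, −3.34, −4.36 and −4.26 in βFbln5KO islets. It was well above background on 7 of 8 arrays, and its difference of 0.07 had a wide interval, from −0.62 to 0.77. Its paralog Unc13b differed by −0.003 (95% interval −0.25 to 0.24). Unc13d, known from granule release in blood cells, was above background on 4 control and 2 βFbln5KO arrays and differed by −0.31 (95% interval −0.88 to 0.25). Cadps and Cadps2, which prime dense-core granules, differed by −0.02 and 0.06. A second Cadps2 probe was above background on 3 control arrays and no βFbln5KO array, where it was at least 1.41-fold brighter in control (−0.59, SE 0.31, adjusted p = 0.299 by limma). A second Cadps probe, in the outer spot rows, differed by −0.30 (SE 0.13, unadjusted limma p of 0.0475, adjusted p of 0.195).

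The synaptotagmins differed little. Syt7, a high-affinity calcium sensor of β-cells, gave −0.12, −0.12, −0.14 and −0.04 on control and −0.23, −0.06, −0.21 and −0.24 on βFbln5KO arrays. All but 1 of the βFbln5KO arrays lay below every control array, and βFbln5KO replicate 2 lay among the control values. The difference was −0.08 (SE 0.06, adjusted p = 0.492 by limma). Syt9, a fast calcium sensor, differed by 0.04 (SE 0.13). Syt4, Syt11 and Syt13, synaptotagmins that bind calcium weakly or not at all, differed by −0.06, −0.04 and −0.09. The intervals of these 5 synaptotagmins lay within a change of 1.5-fold. The remaining 3 members of the group, Doc2b and both complexins, varied far more from array to array and are described below.

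Of the Rab GTPases, Rab3a and Rab27a, which tether granules to the membrane, were steady. Rab3a gave 4.35, 4.44, 4.39 and 4.45 in control and 4.41, 4.52, 4.46 and 4.32 in βFbln5KO islets, with a difference of 0.02 (SE 0.06) and of 0.06 (SE 0.06) by its second probe. Rab27a gave 1.74, 1.73, 1.81 and 1.78 in control and 1.74, 1.73, 1.73 and 1.60 in βFbln5KO islets. The array labelled βFbln5KO replicate 4 stood below the other 7, and the difference was −0.07 (SE 0.05). Its second probe differed by 0.01 (SE 0.15). Rab3d, known from exocrine and endocrine granules, gave 2.72, 2.70, 2.70 and 3.05 in control and 2.95, 2.62, 2.94 and 2.73 in βFbln5KO islets, and the difference of 0.02 (SE 0.10) turned to −0.10 (SE 0.15) at its second probe. Rab3b differed by 0.11 (SE 0.14) and Rab3c by 0.14 (SE 0.34).

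Rab27b, the close relative of Rab27a, had the lowest estimate of all members, and its call depended on 1 array. Its signals were −4.26, −4.06, −3.03 and −3.85 on control and −5.54, −4.78, −5.09 and −3.38 on βFbln5KO arrays. It was detected above background on each control array and, of the βFbln5KO arrays, on the array labelled replicate 4 alone, which lay within the control range. With all arrays the difference was −0.90 (SE 0.49, 95% interval −1.999 to 0.21, adjusted p = 0.314 by limma). Without the array labelled βFbln5KO replicate 4 the adjusted limma p was 0.0412, with 0 of 3 βFbln5KO arrays above background and at least a 1.38-fold brighter signal in control. In that fit 20.4% of all probes had an adjusted p under 0.05, and 0.597% were lower. A second Rab27b probe, also above background on 1 βFbln5KO array, differed by −0.47 (SE 0.34).

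Among the Rab effectors, Rims2, the active-zone scaffold that links Rab3 to Munc13, gave −0.57, −0.65, −0.78 and −0.64 on control and −0.57, −0.58, −0.54 and −0.71 on βFbln5KO arrays. The groups overlapped, with a difference of 0.06 (SE 0.07) that was −0.17 (SE 0.11) at its second probe. Rph3al, the effector also called Noc2, gave 2.74, 2.91, 2.99 and 2.95 in control and 2.96, 2.90, 2.92 and 2.87 in βFbln5KO islets, a difference of 0.02 (SE 0.06). Its second probe differed by −0.31 (SE 0.30), where control replicate 4 alone stood high, at −2.15, with the other 7 arrays between −3.60 and −3.19. Sytl4, or granuphilin, which docks insulin granules, differed by −0.03 (95% interval −0.26 to 0.20).

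The 3 other effectors lay near background. Exph5, a Rab27 effector, was detected above background on each of the 4 control arrays and on none of the βFbln5KO arrays. It gave −4.56, −4.34, −4.12 and −4.37 in control and −5.48, −5.49, −4.50 and −4.47 in βFbln5KO islets, with replicate 1 and 2 of the latter the lowest. The lowest signal called above background was itself higher on the βFbln5KO arrays (−4.70 to −4.19) than on the control arrays (−5.01 to −4.79), so detection of dim probes such as those of Exph5, Rab27b and Unc13d was not judged at the same level in both genotypes. The difference was −0.64 (SE 0.32, adjusted p = 0.272 by limma), and no fold is given because the control mean did not exceed the bound for the βFbln5KO arrays, the mean over them of the higher of the probe's own signal and the array's lowest signal called above background. Leaving out βFbln5KO replicate 3 or the array labelled replicate 4 gave an unadjusted limma p of 0.0458 or 0.0392, with an adjusted p of 0.200 or 0.155. Sytl2 differed by 0.35 (95% interval −0.37 to 1.07) and was above background on 7 arrays. Rims1 was above background on control replicate 2 alone, and its difference of −0.08 had an interval of −1.15 to 0.99.

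Where a gene had several probes, these often differed in sign. Of 20 members with several probes there were 25 further probes, 16 of them well above background on at least 4 arrays. Of these 16, 8 pointed the opposite way from the probe that stood for the gene, those of Snap25, Stx4a, Stxbp2, Cplx2, Rab3d, Rab27a, Rims2 and Rph3al. None of the 8 had an unadjusted limma p under 0.05. The further probes of Nsf and Cadps did, and both were lower.

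**Figure D3:**
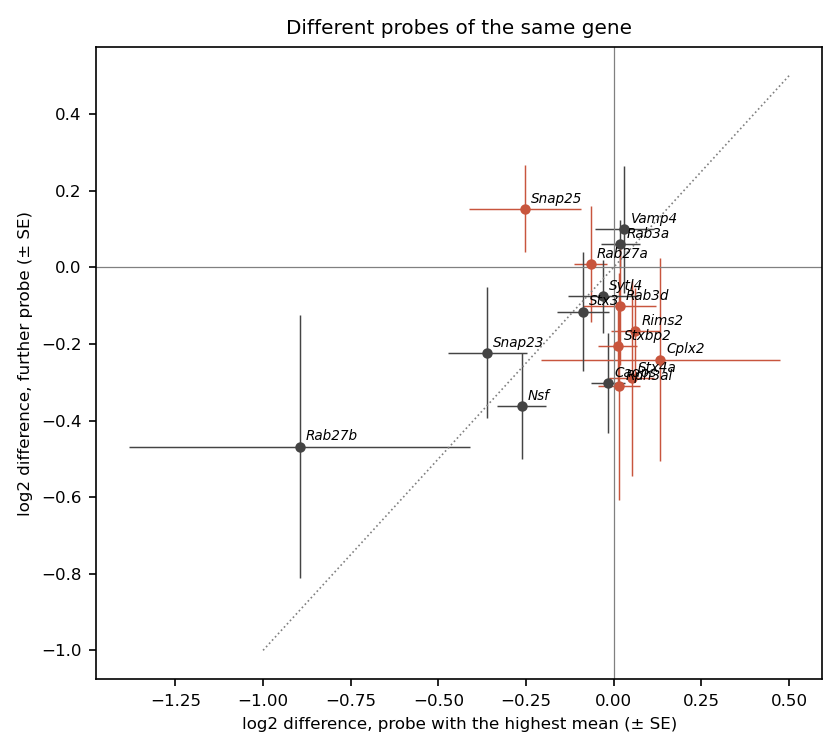
The log2 difference between βFbln5KO and control islets by the probe with the highest mean (horizontal axis) and by a further probe well above background on at least 4 arrays (vertical axis), each with its SE, for 16 members; the dotted line marks equal values. Red marks the 8 members with opposite signs, and Nsf and Snap23 lie below 0 on both.

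Members differed widely in how far they varied among the arrays of 1 genotype. The within-group SD (log2) had a median of 0.112 over the 31 members detected on all arrays, beside 0.128 over all 13650 such genes. Over all 37 members it was lowest for Vamp3 (0.045), Syt13 (0.053), Rab27a (0.053) and Cadps (0.056). It was highest for Cplx1 (0.808), Rab27b (0.763, above background on 5 arrays), Rims1 (0.727, on 1 array), Rab3c (0.578), Cplx2 (0.577) and Doc2b (0.572). To see which other genes these followed, the members' values were set against the mean level of 12 lists of cell type markers over the 8 arrays, in 444 relations. After Benjamini-Hochberg adjustment 0 passed, and 33 had an unadjusted exact permutation p under 0.05. Those described next were chosen after their values were seen. Of the others, Rab27a ran opposite to the Schwann cell markers, with r −0.878 (exact permutation p = 0.00149, adjusted 0.231) and rho −0.952 (exact permutation p = 0.00114, adjusted 0.248), and Napa opposite to the PP-cell markers, with r −0.906 (exact permutation p = 0.00236, adjusted 0.231) and the same rho. Without the 2 farthest arrays r was −0.96 and −0.917.

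Cplx1, the complexin best known from synapses, varied with the neuron markers and also with the Schwann cell markers. Its signals were −1.82, −0.95, −2.22 and −2.84 on control and −2.66, −1.57, −1.96 and −0.69 on βFbln5KO arrays. They were highest on control replicate 2 and the array labelled βFbln5KO replicate 4 and lowest on control replicate 4 and βFbln5KO replicate 1. The neuron markers averaged −0.86, 0.40, −1.07 and −1.55 on control and −1.11, −0.60, −0.48 and 0.36 on βFbln5KO arrays. Pearson's r was 0.954 (exact permutation p = 0.000546, adjusted 0.231) and Spearman's rho 0.905 (exact permutation p = 0.00456, adjusted 0.405). Without the 2 arrays farthest from the median, control replicate 2 and the array labelled βFbln5KO replicate 4, r was 0.861, and with each genotype centred on its own mean it was 0.955. Of the 4 neuron markers, 3 were detected above background on every array and Dbh on 2. Their within-group SD was 0.078 for Th, 1.06 for Prph, 0.773 for Stmn2 and 1.37 for Dbh, so Th added little to how the mean varied. With the Schwann cell markers, Cdh19 included, r was 0.882 (exact permutation p = 0.00255, adjusted 0.231) and rho 0.833 (exact permutation p = 0.0154, adjusted 0.569), and r was 0.573 without the same 2 arrays. The genotype difference of Cplx1 was 0.23, with an interval of −0.85 to 1.32.

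Stx1a shared its 2 highest and its 2 lowest arrays with Cplx1, and its values against the neuron markers gave r 0.925 (exact permutation p = 0.0026, adjusted 0.231) and rho 0.929 (exact permutation p = 0.00223, adjusted 0.248). Its r was 0.787 without the same 2 arrays and 0.933 with each genotype centred. With the Schwann cell markers Stx1a had r 0.783 (exact permutation p = 0.0229, adjusted 0.486) and rho 0.786 (exact permutation p = 0.0279, adjusted 0.689), and r was 0.294 without those arrays. Rab3c, a neuronal Rab3, gave −1.05, −0.49, −1.02 and −1.09 in control and −1.86, −0.19, −0.78 and −0.27 in βFbln5KO islets. Its r with the neuron markers was 0.686 (exact permutation p = 0.0607, adjusted 0.705) and its rho 0.786 (exact permutation p = 0.0279, adjusted 0.689), and r was 0.554 without the 2 farthest arrays. With the macrophage markers Rab3c had r −0.776 (exact permutation p = 0.0243, adjusted 0.486) and rho −0.667 (exact permutation p = 0.0831, adjusted 0.724), and r was −0.232 without the 2 farthest arrays. Leaving out βFbln5KO replicate 1, its lowest array, gave Rab3c an unadjusted limma p of 0.0333, higher in βFbln5KO, and an adjusted p of 0.183. Doc2b, a calcium sensor that binds syntaxin, ran from −2.11 to −1.04 on control and from −2.73 to −1.28 on βFbln5KO arrays, and its r with the neuron markers was 0.536 (exact permutation p = 0.169, adjusted 0.863) and its rho 0.548 (exact permutation p = 0.171, adjusted 0.739). With the δ-cell markers Doc2b had r 0.838 (exact permutation p = 0.00833, adjusted 0.463) and rho 0.881 (exact permutation p = 0.00724, adjusted 0.536), with r 0.627 without the 2 farthest arrays. With the PP-cell markers it had r 0.779 (exact permutation p = 0.0198, adjusted 0.486) and rho 0.833 (exact permutation p = 0.0154, adjusted 0.569), with r 0.805 without them. Cplx1 and Stx1a with the PP-cell markers, and Stx1a and Doc2b with the macrophage markers, had an exact permutation p for r from 0.0323 to 0.0475. The part of RNA from any of these cell types in these values was not tested.

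Other members went with the acinar markers, which averaged 5.73, 5.40, 7.31 and 6.91 on control and 5.69, 4.67, 4.71 and 6.49 on βFbln5KO arrays. Rab27b was high where these were, on control replicate 3 and the array labelled βFbln5KO replicate 4, with r 0.77 (exact permutation p = 0.0272, adjusted 0.488) and rho 0.76 (exact permutation p = 0.0368, adjusted 0.724). Without control replicates 3 and 4 its r was 0.61. Cplx2, the complexin that prevails in β-cells, ran opposite to them. It gave 4.90, 4.57, 3.23 and 4.06 in control and 4.49, 4.52, 4.50 and 3.77 in βFbln5KO islets, lowest on the same 2 arrays on which Rab27b was highest. Its r was −0.78 (exact permutation p = 0.0195, adjusted 0.486) and its rho −0.67 (exact permutation p = 0.0831, adjusted 0.724), with r −0.52 without the 2 farthest arrays and −0.85 with each genotype centred. Rims2 also ran opposite to the acinar markers, with r −0.809 (exact permutation p = 0.015, adjusted 0.486) and rho −0.619 (exact permutation p = 0.115, adjusted 0.739). Without control replicates 3 and 4 its r was −0.71. Stx3 had r 0.671 with the acinar markers (exact permutation p = 0.0275, adjusted 0.488) and −0.121 without those 2 arrays. With the ductal markers Cplx2 had r −0.769 (exact permutation p = 0.0245, adjusted 0.486) and rho −0.81 (exact permutation p = 0.0218, adjusted 0.604), with r −0.692 without the 2 farthest arrays. The genotype difference of Cplx2 was 0.13 (SE 0.34) by 1 probe and −0.24 (SE 0.26) by the other. Exph5 had r 0.94 with the α-cell markers (exact permutation p = 0.0109, adjusted 0.486) but rho 0.50 (exact permutation p = 0.216, adjusted 0.739), and r fell to 0.26 without βFbln5KO replicates 1 and 2, on which the relation rests. Exph5 was above background on none of the βFbln5KO arrays and Rab27b on 1 of them, so these relations use values near background. The part of acinar, ductal or α-cell RNA in these members was not tested.

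**Figure D4:**
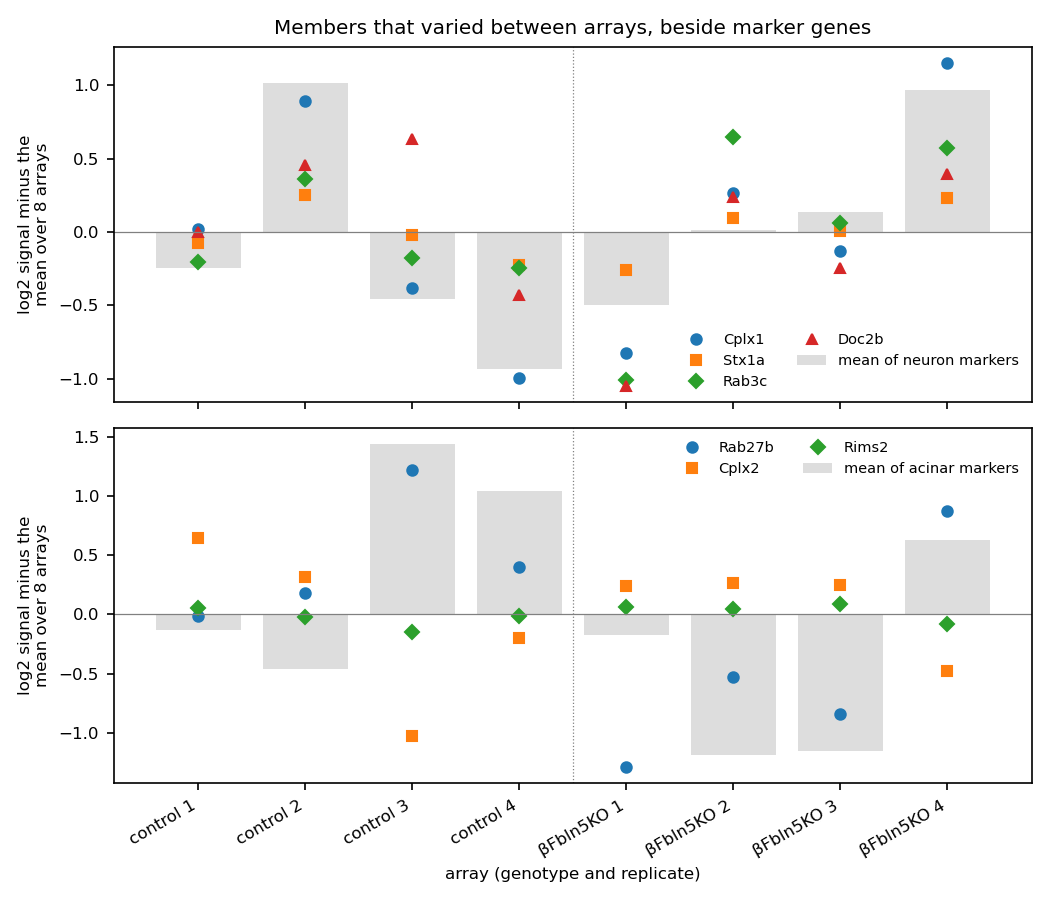
The log2 signal of members, each minus its mean over the 8 arrays (vertical axis, points), on each array (horizontal axis), with the mean of the neuron (top) and acinar (bottom) markers centred in the same way as grey bars. Cplx1 is highest on control replicate 2 and the array labelled βFbln5KO replicate 4, where the neuron bars are tallest, and Rab27b and Cplx2 lie on opposite sides of 0 on control replicates 3 and 4 and on the array labelled βFbln5KO replicate 4.

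Exocytosis genes outside the list also differed little. Of 71 such genes, all measured, 57 were well above background on all arrays. At an unadjusted limma p under 0.05, 5 of the 71 were lower and 2 higher, beside 2.68% and 16.8% of all named genes, and none passed adjustment. Among the 57 detected on all arrays 4 were lower and 1 higher, beside 3.08% and 1.01% of such genes. Of the 7 called, Rph3a and Cplx4 were above background on no array. The other 5 were the active-zone scaffold Pclo (−0.18, SE 0.08), the secretory-pathway GTPase Rab2a (−0.22, SE 0.07), the Rab27 effectors Sytl5 (−0.40, SE 0.16) and Sytl3 (0.36, SE 0.12), and Rab3il1 (−0.27, SE 0.11), an exchange factor. Of the 57, Rab2a and Rab3il1 were lower on every βFbln5KO array than on every control array, as were 2.04% of the 13650 genes detected on all arrays. Sytl3 and the synaptotagmin Syt8 (0.41, SE 0.19, adjusted p = 0.222 by limma) were higher on every βFbln5KO array, as were 0.681% of those genes. Syt8, like the markers named singly above, was chosen after its values were seen. The median log2 difference of the 57 was −0.02. By list, 0 of 9 other SNAREs, 0 of 6 other syntaxin-binding proteins, 0 of 2 other SNAPs and 0 of 9 exocyst subunits were lower or higher. The calls fell on 1 of 15 other calcium sensors and complexins, 1 of 12 active-zone proteins and 5 of 18 other Rabs, effectors and regulators.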

How the data were processed

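Islet RNA from 4 control and 4 βFbln5KO extractions was measured on 1-colour Agilent mouse arrays (59305 non-control spots, 56605 probes). Per spot, the authors deposited a processed signal from Agilent Feature Extraction 11.0.1.1, which is a background-subtracted intensity that is not normalized between arrays, and a table of 35553 probes, which is that intensity divided by 1 number per array. Deposited with each intensity were marks for outlier spots and for spots well above background, both used here. No spot was saturated. Outlier-marked values (0.356%) were left out.

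Signals were put on the log2 scale, each array's 75th percentile was subtracted, and replicate spots were averaged. Probes were named through their RefSeq accessions (58.3%). Genotypes were compared with limma 3.58.1 (lmFit, eBayes with trend) in R 4.3.3, and p-values were adjusted over all probes by Benjamini-Hochberg (threshold 0.05). The fit was tested on simulated data. Where 1 genotype had no array above background, the bound used the higher of the probe's own signal and the lowest signal called above background on each dim array. Values on every array are given for members with an unadjusted p under 0.05 or groups without overlap, for members with a further probe of opposite sign, and for members central to a role. Exact permutation tests were two-sided. The members and lists were chosen with earlier results of these data known. The first markers of 2 cell type lists are not reported here and were left out of those lists. The number of arrays limits the precision. Alternatives were another background correction, normalization, filter, floor, moderation, probe choice, the methods' t-test, the deposited table, a replicate block, and each array or the outer spot rows left out.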

Additional observations from a re-analysis of the deposited data

Results flagged for a closer look

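In 7 of 74 groups of 4 arrays, 1 array stood apart from the other 3 of its genotype by the gap to its nearest neighbour over the group's range (Dixon's criterion, which flags about 1 in 20 groups by chance). The values are log2 signals. The array labelled βFbln5KO replicate 4 was the lowest of its group for Cplx2 (3.77, nearest other array 4.49), Rab27a (1.60, nearest 1.73) and Syt13 (6.64, nearest 6.73). βFbln5KO replicate 2 was the highest of its group for Syt7, at −0.058 with the nearest at −0.21. Among control arrays, replicate 1 was the lowest for Vamp4 (1.59, nearest 1.89), replicate 2 the highest for Rab3c (−0.49, nearest −1.02) and replicate 4 the highest for Rab3d (3.05, nearest 2.72).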

How the results depend on the processing

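Under 19 alternatives, Nsf and Snap23 stayed lower at an unadjusted p under 0.05 in 19 of 19 settings each (by limma, or by the methods' t-test in that setting), with log2 differences from −0.31 to −0.22 and from −0.45 to −0.27. Neither passed adjustment in any setting. The number of members called at an adjusted p under 0.05 ranged from 0 to 1 when each array was left out, the 1 being Rab27b without the array labelled βFbln5KO replicate 4, and was 0 in the 11 other settings. With each array left out in turn, members lower at an unadjusted p under 0.05 numbered from 2 to 4 and members higher from 0 to 1, while from 2.09% to 3.5% of all named genes were lower and from 15.9% to 19.1% higher. The cause was not tested beyond the array left out. Of 696 member estimates under alternatives, 60 changed sign, all of them uncalled in both settings. The median log2 difference of the 31 detected members lay between −0.04 and 0.02 in all settings. The replicate numbers did not pair the arrays (same-number correlations of 0.20, 0.30, −0.22 and −0.02), and with the number as a replicate block 2 members were lower, 0 higher and 0 called after adjustment. The counts of exocytosis genes outside the list, recomputed after seeing the data, were less stable. Beside 5 lower with the settings of the report, 2 were counted lower with a floor on dim signals (2.11% of all named genes) and 3 each with eBayes without trend, the mean of a gene's probes (61 genes), the methods' t-test and the replicate block (from 2.6% to 4.55%). Beside 2 higher, 1 was counted higher with normexp (0.738% of all named genes) and 4 with eBayes without trend (16.3%). The counts do not say that the same genes were called. With each array left out they ranged from 1 to 6 lower and from 2 to 5 higher, beside the shares of all named genes given above for those fits. The cause was not tested. None of the 6 members not above background on all arrays had an interval within 1.5-fold, and neither did 6 of the 31 that were.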
